A study of Homo sapiens with 10 samples.

Results

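The cytosolic ribosomal proteins were followed across SH-SY5Y cells that carried FOXP2 cDNAs of 4 primate species or an empty vector. Members were all gene symbols of the form RPL or RPS with a number and, where present, one of the endings A, AL, X or L, together with RPLP0, RPLP1, RPLP2 and RPSA. This rule took 82 of the 27992 symbols in the deposited table, 50 of the large and 32 of the small ribosomal subunit. Among them were 5 paralogs that stand beside a parent gene in the same set, namely RPL3L, RPL10L, RPL36AL, RPL39L and RPS27L. FAU, which encodes a ribosomal protein fused to a ubiquitin-like protein, fell outside the rule.

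Ribosomal proteins form, with the ribosomal RNAs, the small subunit that decodes mRNA and the large subunit that joins amino acids. Their mRNAs are short, abundant and stable, and most begin with a run of pyrimidines, the terminal oligopyrimidine (TOP) tract, through which mTORC1 and LARP1 regulate their translation and stability. Since each ribosome needs a copy of nearly every protein, the genes are usually expressed together, and in tumour lines such as neuroblastoma they are also linked to growth through MYC family factors.

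SH-SY5Y is a human neuroblastoma line. The cells were stably transfected with linearized pcDNA3, a plasmid that drives its insert from a viral promoter, either empty or with human (hsaFOXP2), chimpanzee (ptrFOXP2), Rhesus monkey (mmuFOXP2) or marmoset (cjaFOXP2) FOXP2 cDNA, and all of them were kept in geneticin. By the labels, each of the 5 conditions was made in 2 rounds of transfection, A and B, with 1 RNA-seq library per round and 10 libraries in all, while the study's methods describe a further round that was not sequenced. The sources used here do not say whether a line was 1 clone or a mixture of integrants. Values are BPKM, an RPKM computed on mapped bases, which puts levels of different genes on a scale per transcript length, and a gene's level is the mean over its transcripts. Pairs of values below are given for A and then B.

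FOXP2 itself was at 0.00450 and 0 BPKM in pcDNA3 and at 0.932 to 30.2 BPKM in the lines with a FOXP2 cDNA, so that it separated the libraries labelled as carrying a cDNA from the others. By condition it was at 1.54 and 0.932 BPKM in hsaFOXP2, 2.09 and 21.8 in ptrFOXP2, 30.2 and 3.91 in mmuFOXP2, and 14.5 and 18.3 in cjaFOXP2. Both hsaFOXP2 libraries were thus below every library with non-human FOXP2, and the part of this difference in comparisons of the 2 was not tested. The study reported about equal FOXP2 protein by densitometry. Symbols above 0 numbered 20200 to 20794 per library and the depth behind the values is unknown. Of 10 markers of adrenergic neuroblastoma, 9 averaged at least 1 BPKM and the sum of the 10 was 219 to 423 BPKM, while TH was at 0 in every library but 1. Of 5 fibroblast markers, 4 reached that level, with sums of 57.8 to 226, and COL1A2 at 0.205 at most. Markers of glia, endothelium and leukocytes passed that level in 1 of 5, 0 of 3 and 1 of 3 cases.

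The feature that these mRNAs share at their start is shown in 10 windows of 30 bases, 15 before and 15 from the transcription start of RefSeq (GRCh38.p14). Capitals mark a C followed by at least 4 bases that are C or T, where such a tract begins within 2 bases of the start. A marked tract can lie inside a longer run of pyrimidines, as in RPL36A and RPL41. The windows lie at chr9:19380222-19380251 (RPS6, minus strand), chr12:56116618-56116647 (RPL41, plus), chr12:120201097-120201126 (RPLP0, minus), chr3:39406705-39406734 (RPSA, plus), chr9:127451392-127451421 (RPL12, minus), chr22:39319609-39319638 (RPL3, minus), chrX:101390996-101391025 (RPL36A, plus), chr14:49620612-49620641 (RPL36AL, minus), chr1:153990747-153990776 (RPS27, plus) and chr15:63157463-63157492 (RPS27L, minus). They hold 2 of the most abundant members, the stalk protein, a member with a known second role, the member with the lowest fold change between human and non-human FOXP2, and 2 pairs of parent and paralog. The remaining window is that of RPL3, a parent whose paralog RPL3L had no promoter sequence at hand.
RPS6: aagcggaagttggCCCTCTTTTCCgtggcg
RPL41: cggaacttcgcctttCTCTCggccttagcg
RPLP0: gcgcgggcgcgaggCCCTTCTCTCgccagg
RPSA: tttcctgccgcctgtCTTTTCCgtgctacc
RPL12: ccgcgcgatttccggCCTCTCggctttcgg
RPL3: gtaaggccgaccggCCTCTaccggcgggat
RPL36A: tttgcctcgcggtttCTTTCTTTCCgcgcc
RPL36AL: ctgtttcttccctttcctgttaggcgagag
RPS27: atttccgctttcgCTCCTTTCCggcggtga
RPS27L: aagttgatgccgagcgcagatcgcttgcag
In RPS27L no tract stood near the start, while in its parent RPS27 a tract began within 2 bases of the start. In RPL36AL and in its parent RPL36A a run of pyrimidines that began more than 2 bases before the start crossed it. Only in RPL36A did this run hold a C within 2 bases of the start with at least 4 pyrimidines after it.

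A promoter sequence was at hand for 65 of the 82 members. In 50 of these 65 (76.9%) a tract of this kind began within 2 bases of a start, against 13.03% of 27305 genes of the RefSeq table. Within 10 bases the shares were 89.2% and 38.4%. The 7 matched members with no tract within 10 bases were RPL6, RPL10L, RPL17, RPL27, RPS4X, RPS27L and RPS29. The tract was as rare in mitochondrial ribosomal protein genes (11.6% of 69) and ribosome biogenesis genes (15.8% of 57) as in all genes, and it was found in 88.2% of 17 translation factors and other genes listed for their TOP mRNAs. The motif CTTCCGG of ETS family factors, read on either strand from 250 bases before to 50 after the start, occurred in 35.4% of the members, 12.2% of all genes and 43.5% of the mitochondrial ribosomal protein genes. TATAAA, read likewise, occurred in 9.23% of members and 13.99% of all genes.

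Ribosomal protein mRNAs were among the abundant mRNAs of these cells. Of the 82 members, 80 were above 0 in every library and averaged at least 1 BPKM, 63 averaged at least 100 BPKM, and 3 were among the 50 symbols of highest level. The median was 168 BPKM over 46 large subunit members and 199 over 31 small subunit members, paralogs left out. The order of members hardly changed, with Spearman's rho across the 80 members between 0.966 and 0.993 over 45 pairs of libraries, a description across genes that are no independent replicates.

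RPS6, the small subunit protein that is phosphorylated downstream of mTORC1, had the highest mean of all members. It measured 632 and 499 BPKM in pcDNA3, 473 and 380.3 in hsaFOXP2, 522 and 454 in ptrFOXP2, 542 and 558 in mmuFOXP2, and 469 and 643 in cjaFOXP2. The highest libraries were thus cjaFOXP2 B and pcDNA3 A and the lowest hsaFOXP2 B, an order that recurred in most members. RPL41, the smallest ribosomal protein, followed with a mean of 485 BPKM (413 to 621). RPL8, which lies near the site of peptide bond formation, had 441 (317 to 565). RPS2, at the entry of the mRNA channel, had 344 (272 to 444). The 5 most abundant members made up 14.7% of the summed BPKM of the set.

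Levels given as a mean over transcripts depend on the transcripts listed for a symbol. The set has 202 transcripts, 27 members have only 1, and the transcript of highest level exceeded the member's mean by 1.18-fold in the median of the 55 others. RPS18, a protein of the small subunit head, was the exception: 9 of its 11 transcripts were at 0, so that its mean was 87.8 BPKM and its leading transcript had 544, or 6.19-fold more. By leading transcripts RPS6 had 561 BPKM.

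The stalk of the large subunit, which recruits translation factors, is formed by RPLP0, RPLP1 and RPLP2. RPLP0 had 355 and 271 BPKM in pcDNA3, 258 and 226 in hsaFOXP2, 282 and 245 in ptrFOXP2, 308 and 315 in mmuFOXP2, and 233 and 335 in cjaFOXP2. RPLP1 ranged from 266 to 415 BPKM and RPLP2 from 241 to 388. All of them were lowest in cjaFOXP2 A or hsaFOXP2 B and highest in pcDNA3 A or cjaFOXP2 B. Primers labelled RPLP served the study's RT-qPCR, with a forward gcatcagtaccccattctatca and a reverse aaggtgtaatccgtctccacaga, both printed 5′ to 3′. On GENCODE transcripts both matched RPLP0 without mismatch, with a product of 74 bases, and also its processed pseudogenes RPLP0P6 and RPLP0P9. RPLP0 varied 1.57-fold over the 10 libraries, GAPDH, a glycolytic enzyme, 2.00-fold (672 to 1346 BPKM), and their ratio 1.93-fold, from 0.195 in hsaFOXP2 A to 0.375 in cjaFOXP2 B.

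The members were high or low together from library to library. They took 5.62% and 4.54% of summed BPKM in pcDNA3, 4.41% and 4.00% in hsaFOXP2, 4.80% and 4.27% in ptrFOXP2, 4.88% and 4.74% in mmuFOXP2, and 4.07% and 5.55% in cjaFOXP2. The mean share was 5.08% ± 0.761 (SD, n = 2) in pcDNA3, 4.21% ± 0.293 in hsaFOXP2, 4.54% ± 0.375 in ptrFOXP2, 4.81% ± 0.0958 in mmuFOXP2 and 4.81% ± 1.05 in cjaFOXP2. Both hsaFOXP2 libraries were below both pcDNA3 libraries, but cjaFOXP2 A was also below hsaFOXP2 A, so that hsaFOXP2 overlapped with the 6 non-human FOXP2 libraries (4.72% ± 0.519, SD). The shares of a bulk sample cannot tell fewer cells of a type from less RNA per cell. The sum over the large subunit was 1.31 to 1.39 times that over the small subunit in every library.

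Relative to its own mean over the 10 libraries, on log2(BPKM + 0.1), each of the 80 members was higher in pcDNA3 A and 79 were higher in cjaFOXP2 B. None was higher in hsaFOXP2 B and 1 was in cjaFOXP2 A. The members' median deviation was 0.29 and -0.03 in pcDNA3, -0.08 and -0.29 in hsaFOXP2, 0.05 and -0.15 in ptrFOXP2, 0.09 and 0.08 in mmuFOXP2, and -0.21 and 0.29 in cjaFOXP2. Of all members, 36 peaked in pcDNA3 A and 41 in cjaFOXP2 B, while 47 had their lowest value in hsaFOXP2 B and 17 in cjaFOXP2 A. Subtracting the library's median removed 76.2% of the members' squared deviations, and the median SD of a member over libraries dropped from 0.219 to 0.0837 on the log2 scale. For 13412 symbols with a mean of at least 1 BPKM, subtracting their own library median removed 1.71%. After this step 54 members had an SD below 0.1. The share removed was not computed for the related gene lists below. Their library medians varied too, for ribosome biogenesis genes from -0.50 in cjaFOXP2 A to 0.31 in pcDNA3 A.

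**Figure D1:**
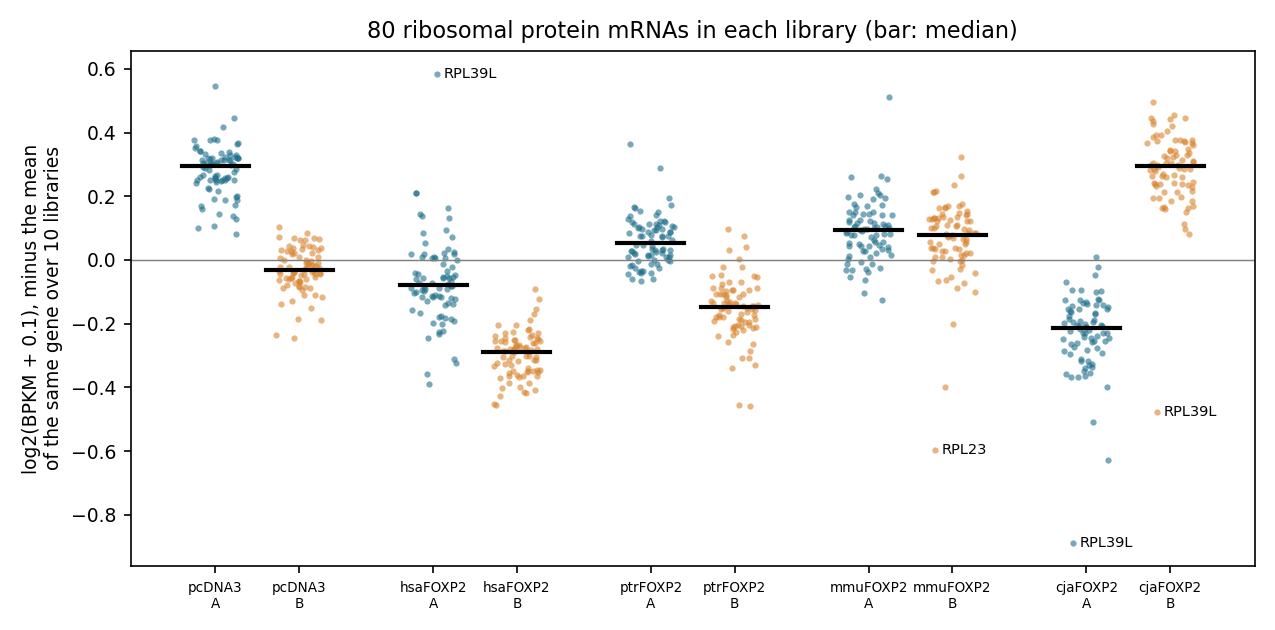
Each point is 1 of 80 ribosomal protein genes in 1 library (blue, replicate A, and orange, replicate B), placed by its log2(BPKM + 0.1) minus the mean of that gene over the 10 libraries, and bars are medians. The points of a library move as a block, between -0.29 in hsaFOXP2 B and 0.29 in pcDNA3 A and cjaFOXP2 B, and RPL39L and RPL23 lie outside the block where named.

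Replicates of a condition lay as far apart as conditions did. Between B and A the members' median log2 difference was -0.31 in pcDNA3, where all 80 members were higher in A, -0.22 in hsaFOXP2 (73 of 80 higher in A) and -0.21 in ptrFOXP2 (79 of 80 higher in A). It was -0.02 in mmuFOXP2, with 41 of 80 higher in A, and 0.51 in cjaFOXP2, with 80 of 80 higher in B. Over all symbols with a mean of at least 1 BPKM the same medians lay between -0.13 and 0.13. The summed nuclear RNAs MALAT1 and NEAT1 were higher in B than in A in pcDNA3 (49.6 and 96.0 BPKM), hsaFOXP2 (30.8 and 63.4), ptrFOXP2 (56.7 and 141.6) and mmuFOXP2 (35.6 and 75.0), but were alike in cjaFOXP2 (81.8 and 80.9). The fibroblast markers summed to 112 and 172 BPKM in pcDNA3, 57.8 and 221 in hsaFOXP2, 86.7 and 82.6 in ptrFOXP2, 133 and 71.04 in mmuFOXP2, and 226 and 185 in cjaFOXP2. The part of these RNAs in the members' levels was not tested.

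In the fit of B against A with condition as a covariate, limma called 0 of 81 members (background 0% of 22238 symbols), and 0 members passed an unadjusted p of 0.05 (background 6.68% higher and 4.30% lower). The median log2 fold change was -0.05 with 61 of 81 members below 0, and it turned to 0.03 after quantile normalisation. Symbols with a mean of at least 1 BPKM also had a median of -0.05, with 8101 of 13412 below 0. The members' median was 0.02 without either pcDNA3 library and -0.19 without either cjaFOXP2 library. The lowest members were RPL39L at -0.42 (SE 0.19, adjusted p = 0.4663) and RPL8 at -0.24 (SE 0.16), and the highest was RPL37 at 0.15 (SE 0.13).

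Human FOXP2 was compared with the 3 non-human FOXP2 cDNAs as the main question of the design. Of the 81 members tested, limma called 0 (background 0.00912% of 21937 symbols, 0.00456% in each direction). At an unadjusted p of 0.05, 3 were lower (background 1.42%), namely RPL12, RPL13A and RPS29, and 0 were higher (background 3.02%). The members' median log2 fold change was -0.20 with 80 of 81 below 0, against 0.01 over all symbols. The nuclear RNAs NEAT1 and MALAT1 were at -0.80 (SE 0.33) and -0.63 (SE 0.61) in the same comparison, the first at an unadjusted p of 0.05. Of the glial markers tested, 4 of 4 were below 0 with a median of -0.43. The glial list summed to 1.30 BPKM in hsaFOXP2 A and 4.69 in hsaFOXP2 B, against 2.56 to 6.07 with non-human FOXP2. Adrenergic markers were above 0 in 8 of 9 cases (median 0.59), with 3 higher and 1 lower at an unadjusted p of 0.05. Above 0 were also 2 of 5 fibroblast, 3 of 3 endothelial and 1 of 2 leukocyte markers. The part of these RNAs in the members' values was not tested. The members' median was -0.32 without hsaFOXP2 A and -0.09 without hsaFOXP2 B, and within rounds it was -0.06 in A and -0.37 in B.

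RPL12, a protein at the base of the stalk, was the lowest member in this comparison. It had 178 and 152 BPKM in pcDNA3, 115 and 126 in hsaFOXP2, 145 and 137 in ptrFOXP2, 157 and 163 in mmuFOXP2, and 148 and 205 in cjaFOXP2. Both hsaFOXP2 libraries were below the other 8, at a mean of 121 ± 7.98 (SD, n = 2) against 159 ± 24.4 (n = 6) with non-human FOXP2. The log2 fold change was -0.39 (SE 0.16, limma adjusted p = 1.00).

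RPL13A, which is also known from the GAIT complex of translational control, had 235 and 179.8 BPKM in pcDNA3, 141 and 154 in hsaFOXP2, 190.2 and 175 in ptrFOXP2, 180.0 and 182 in mmuFOXP2, and 166 and 227 in cjaFOXP2. RPS29, a zinc-binding protein of the small subunit, had 154 and 131, 101 and 102, 132 and 113, 127 and 137, and 114 and 149.9 BPKM in the same order. For either gene both hsaFOXP2 libraries were again below every other library. Their log2 fold changes were -0.33 (SE 0.14) and -0.34 (SE 0.14), with adjusted p = 1.00 in limma for each. RPS27, another zinc-binding protein of the small subunit, was at -0.35 (SE 0.19).

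At the other end stood RPL39L at 0.20 (SE 0.39) and RPL35, a protein at the exit of the peptide tunnel, at -0.04 (SE 0.19). Without hsaFOXP2 A the value of RPL39L was -0.28, and without hsaFOXP2 B that of RPL35 was 0.24. Neither sign was therefore stable to the loss of 1 library.

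Counted without a test, 9 members had both hsaFOXP2 libraries below all 8 others, where the background was 1.61% of 23348 symbols, and the same 9 stood below the 6 non-human FOXP2 libraries (background 2% lower and 3.39% higher). They were RPL12, RPL13A, RPL23A, RPL26, RPL27A, RPL37, RPS25, RPS27 and RPS29, and 0 members had both libraries above (background 2.23%). Since the members move together, the 9 are no independent observations. RPL37, a zinc-binding protein of the large subunit, had 95.6 and 92.3 BPKM in pcDNA3, 76.7 and 77.4 in hsaFOXP2, 91.3 and 87.2 in ptrFOXP2, 88.2 and 102 in mmuFOXP2, and 78.1 and 122 in cjaFOXP2. The lowest other library, cjaFOXP2 A, exceeded the higher hsaFOXP2 library by under 1 BPKM, and the log2 fold change was -0.28 (SE 0.17, limma adjusted p = 1.00). The study listed this gene from these libraries, so that its direction is no independent evidence.

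Against the empty vector, each FOXP2 cDNA was compared with the same 2 pcDNA3 libraries. The 4 comparisons therefore share whatever sets these libraries apart, of which A was high throughout. In hsaFOXP2, limma called 0 of 81 members (background 0.00899% of 22238 symbols), 3 were lower at an unadjusted p of 0.05 (background 2.65%), again RPL12, RPL13A and RPS29, and 0 were higher (background 2.12%). All 81 had a log2 fold change below 0, with a median of -0.31. Symbols with a mean of at least 1 BPKM had a median of -0.03, with 7462 of 13412 below 0. Related gene lists had medians below 0 as well, as given further below. Without pcDNA3 A the members' median was -0.15, without pcDNA3 B -0.47, and without hsaFOXP2 B -0.19. Both libraries lay below both pcDNA3 libraries in 50 members (background 11.9%) and above them in 0 (background 10.5%).

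RPS29 at -0.49 (SE 0.18), RPL13A at -0.48 (SE 0.20) and RPL12 at -0.45 (SE 0.19), whose values per library are given above, were among the lowest here. In each of them the hsaFOXP2 libraries did not overlap with pcDNA3. RPL39L at -0.04 (SE 0.38) and RPS28 at -0.07 (SE 0.22) stood at the upper end.

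In ptrFOXP2, 0 of 81 members were called (background 0.00899%) and 0 passed an unadjusted p of 0.05 in limma (background 0.652% higher and 2.73% lower). The median was -0.18 with 79 members below 0, but only -0.02 without pcDNA3 A. Among symbols with a mean of at least 1 BPKM the median was -0.03, with 8001 of 13412 below 0. RPS7, known to bind MDM2, was among the lowest at -0.38 (SE 0.25), and RPS27L at 0.27 (SE 0.31) and RPS26 at 0.02 (SE 0.27) were highest. Both libraries were below pcDNA3 in 16 members (background 16.7%) and above in 0 (background 8.03%).

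In mmuFOXP2, 0 of 81 members were called (background 0.0045%) and 0 passed an unadjusted p of 0.05 in limma (background 0.634% and 2.48%). The median was -0.04 with 56 members below 0, and it was 0.11 without pcDNA3 A and -0.21 without pcDNA3 B. For symbols with a mean of at least 1 BPKM the median was 0.02, with 6096 of 13412 below 0. Both mmuFOXP2 libraries were below pcDNA3 in RPL11, RPL23 and RPS21 (3 members, background 13.9%) and above in 0 (background 9.43%). RPL23 at -0.46 (SE 0.28) and RPS19 at -0.32 (SE 0.25) were lowest, RPS27L at 0.22 (SE 0.31) and RPL39L at 0.18 (SE 0.38) highest.

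In cjaFOXP2, 0 of 81 members were called (background 0.00899%) and 0 passed an unadjusted p of 0.05 in limma (background 3.90% and 7.12%). The median was -0.09 with 68 members below 0. Symbols with a mean of at least 1 BPKM had a median of -0.07, with 8054 of 13412 below 0. The members' median was 0.18 without cjaFOXP2 A and -0.35 without cjaFOXP2 B, and within rounds it was -0.50 in A and 0.32 in B. RPL39L was the only member with both libraries below pcDNA3 (background 25%), 0 were above (background 18.3%), and its log2 fold change was -0.84 (SE 0.38, adjusted p = 0.471). RPS18 at 0.10 (SE 0.18) and RPL12 at 0.09 (SE 0.19) were highest.

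**Figure D2:**
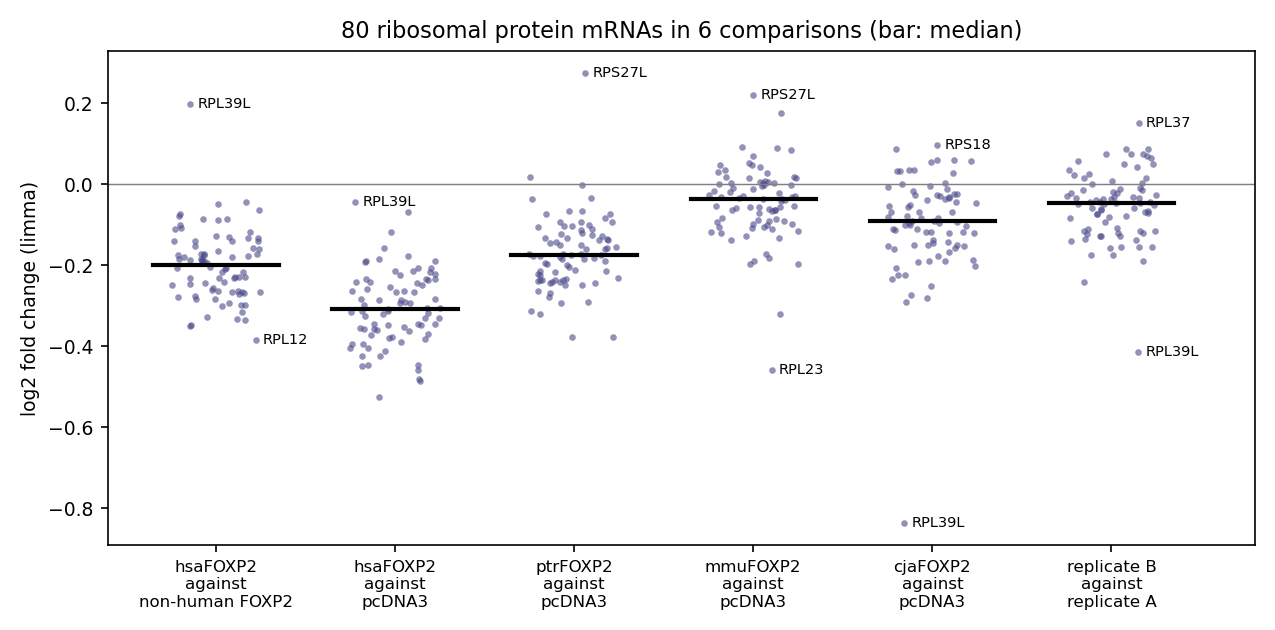
Points are limma log2 fold changes of 80 ribosomal protein genes in 6 comparisons, bars are their medians, and the lowest and highest gene of a comparison are named except for the lowest in the hsaFOXP2 and ptrFOXP2 comparisons with pcDNA3. Medians lie between -0.31 for hsaFOXP2 against pcDNA3 and -0.04 for mmuFOXP2 against pcDNA3, and none of these genes passed the threshold in any of them.

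Some members have known roles outside the ribosome. RPL5 and RPL11, which bind MDM2 together with 5S RNA when ribosome assembly is disturbed, had means of 169.9 and 341 BPKM. RPL5 measured 209 and 167 in pcDNA3, 155 and 131 in hsaFOXP2, 179.6 and 158 in ptrFOXP2, 181 and 179 in mmuFOXP2, and 144 and 195 in cjaFOXP2. RPL11 measured 421 and 346, 311 and 271, 361 and 316, 340.4 and 325, and 283 and 437 BPKM in the same order. Both had hsaFOXP2 below pcDNA3 with overlap to cjaFOXP2, and their log2 fold changes between hsaFOXP2 and non-human FOXP2 were -0.27 (SE 0.15) and -0.23 (SE 0.17). RPSA, also known as a precursor of the laminin receptor, ranged from 154 to 246 BPKM. RPL22, which binds several RNAs outside the ribosome, ranged from 38.5 to 59.1 BPKM with a log2 fold change of -0.26 (SE 0.15). The lowest library was hsaFOXP2 B in RPL5, RPL11, RPSA and RPL22.

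The members that stood apart from the common movement were few, and by their SD after subtraction of the library median the first 5 were RPL39L, RPL23, RPS27L, RPS26 and RPS19. RPL39L, a paralog of RPL39 known from testis and tumour cells, had 17.2 and 9.95 BPKM in pcDNA3, 17.6 and 9.10 in hsaFOXP2, 14.4 and 10.9 in ptrFOXP2, 16.8 and 13.02 in mmuFOXP2, and 6.30 and 8.40 in cjaFOXP2. A was above B in all conditions but cjaFOXP2, and both cjaFOXP2 libraries were below the other 8. Its highest value was 2.80-fold its lowest, against 1.59-fold in the median member. RPL39 itself ranged from 179 to 262 BPKM, so that RPL39L gave 3.11% to 7.88% of the sum of both.

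RPS27L, a paralog of RPS27 that is inducible by p53, had 31.3 and 24.0 BPKM in pcDNA3, 26.6 and 23.9 in hsaFOXP2, 36.7 and 30.0 in ptrFOXP2, 28.7 and 35.6 in mmuFOXP2, and 18.4 and 35.4 in cjaFOXP2. The ptrFOXP2 A library was highest and cjaFOXP2 A lowest, and every condition overlapped with pcDNA3, while both ptrFOXP2 and both mmuFOXP2 values were above both hsaFOXP2 values. It made up 12.8% to 20.6% of the sum with RPS27. RPL36AL, on chromosome 14, was the more abundant of its pair, with 78.0% to 84.3% of the sum with the X-linked RPL36A (19.6 to 31.4 BPKM). RPL3L, known from muscle, had a mean of 0.00708 BPKM beside 211 for RPL3, and RPL10L, known from testis, was at 0 in every library beside 84.4 for RPL10. Reads that fit both a parent gene and its paralog or pseudogene may be split by the counting.

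RPL23, a large subunit protein that binds MDM2, was low in a single library. It had 197 and 167 BPKM in pcDNA3, 147 and 133 in hsaFOXP2, 178 and 155 in ptrFOXP2, 167 and 104 in mmuFOXP2, and 142 and 216 in cjaFOXP2. The mmuFOXP2 B value was 0.626 of what the gene's mean and that library's median would give. Only the leading of its 2 transcripts was low there, at 152 BPKM against 224 to 359 in the other 9 libraries, whereas the second had 56.3 within a range of 42.8 to 72.6. RPS19, the protein first tied to Diamond-Blackfan anaemia, was low in the same library, at 0.718 of the level so derived. It had 302 and 228 BPKM in pcDNA3, 238 and 199.99 in hsaFOXP2, 252 and 212 in ptrFOXP2, 248 and 178 in mmuFOXP2, and 219.8 and 299 in cjaFOXP2, where mmuFOXP2 B is the lowest of all. RPS26, at the exit of the mRNA channel, had 74.9 and 55.5, 64.2 and 49.8, 66.2 and 64.3, 55.2 and 69.9, and 42.3 and 67.3 BPKM in the same order, and was lowest in cjaFOXP2 A, at 0.816 of the level derived in this way. RPL27 was at 0.824 of it in mmuFOXP2 B, while in ptrFOXP2 B RPS7 and RPL7 were at 0.807 and 0.808. In hsaFOXP2 A, where members spread most (SD 0.139 against 0.0696 to 0.127 elsewhere), RPL12 was at 0.806 and RPL13A at 0.823, and RPL35 and RPL36AL at 1.22 each.

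**Figure D3:**
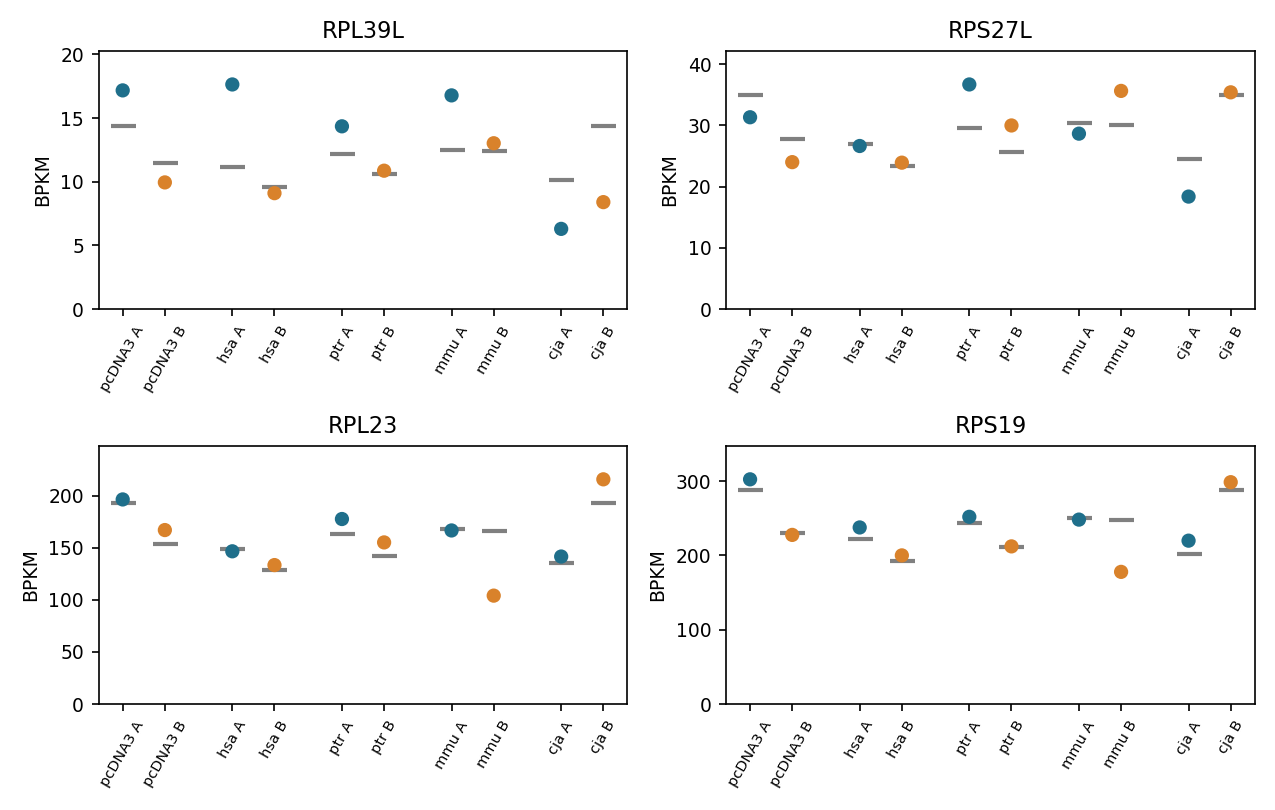
Points are BPKM of RPL39L, RPS27L, RPL23 and RPS19 in the 10 libraries (blue, replicate A, and orange, replicate B, on axes that start at 0), and grey bars mark the level each gene would have if it followed the median of the 80 members. RPL39L lies below its bars in both cjaFOXP2 libraries, and RPL23 and RPS19 lie furthest below theirs in mmuFOXP2 B.

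Other genes of the translation apparatus were compared with the ribosomal proteins. Translation factors and other TOP mRNAs (25 genes) had library medians from -0.32 in hsaFOXP2 B to 0.26 in pcDNA3 A, and 25 of 25 were below 0 in hsaFOXP2 against non-human FOXP2 with a median log2 fold change of -0.17. EEF1A1, the elongation factor that brings aminoacyl-tRNA, was at -0.30 (SE 0.17), and GAS5, a snoRNA host gene that is itself a TOP RNA, at -0.37 (SE 0.17). The 3 measured genes of a list with FAU and GNB2L1, the ribosomal scaffold RACK1, were below 0 as well, with a median of -0.11. Of 10 snoRNA host genes, 10 were below 0, with a median of -0.28 and 1 at an unadjusted p of 0.05. Their library medians differed from those of the members, at 0.33 in ptrFOXP2 B and -0.23 in mmuFOXP2 A where the members were at -0.15 and 0.09, and their median for B against A was 0.18. In none of these lists was a gene called by limma. For hsaFOXP2 against non-human FOXP2, 0, 0 and 1 genes were lower at an unadjusted p of 0.05 (background 1.42%). Of the snoRNA host genes, 3 were so in hsaFOXP2 and 3 in cjaFOXP2 against pcDNA3 (background 2.65% and 7.12%). In B against A, 2 were higher (background 6.68%). In hsaFOXP2 against pcDNA3 the TOP mRNAs and snoRNA host genes had medians of -0.26 and -0.41, with 25 of 25 and 10 of 10 below 0.

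Ribosome biogenesis genes, which encode the factors that make and assemble rRNA, had medians near those of the members in pcDNA3, hsaFOXP2 B and mmuFOXP2 B but far from them in cjaFOXP2 B. Their median deviations (64 genes) were 0.31 and -0.06 in pcDNA3, 0.20 and -0.38 in hsaFOXP2, 0.29 and 0.18 in ptrFOXP2, 0.26 and 0.09 in mmuFOXP2, and -0.50 and -0.34 in cjaFOXP2. The members' median was 0.64 above theirs in cjaFOXP2 B and 0.33 below theirs in ptrFOXP2 B. In hsaFOXP2 against non-human FOXP2 the biogenesis genes had a median log2 fold change of -0.10, with 53 of 64 below 0. In hsaFOXP2 against pcDNA3 their median was -0.23, with 60 of 64 below 0. Against pcDNA3, 64 of 64 were below 0 in cjaFOXP2 with a median of -0.51, and limma called 0 while 31 were lower at an unadjusted p of 0.05 (background 7.12%). NCL, the nucleolar protein nucleolin, was at -0.74 (SE 0.21, adjusted p = 0.316) and NPM1, nucleophosmin, at -0.58 (SE 0.29). The cytosolic members had 68 of 81 below 0 in that comparison, at a median of -0.09.

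Mitochondrial ribosomal proteins (76 genes) and nuclear subunits of oxidative phosphorylation (71 genes), other short and abundant mRNAs, followed the cytosolic members in pcDNA3, with medians of 0.26 and -0.11 and of 0.20 and -0.08. They differed most in hsaFOXP2 A, where they were at 0.23 and 0.16 and the cytosolic members at -0.08, and in cjaFOXP2 B, where they were at -0.04 and 0.07 and the cytosolic members at 0.29. In hsaFOXP2 against non-human FOXP2 their median log2 fold changes were -0.03 and -0.02, with 49 of 76 and 37 of 71 genes below 0, and limma called 0 of either list (1 and 0 at an unadjusted p of 0.05). Regulators of ribosomal protein mRNA (21 genes of mTORC1, LARP1 and MYC) had a median of 0.01 there, within a range of -0.92 to 0.28. LARP1 was at 0.05 (SE 0.15). In hsaFOXP2 against pcDNA3 the median of these regulators was -0.10, with 18 of 21 below 0. In hsaFOXP2 against pcDNA3 the medians of the mitochondrial ribosomal proteins and of oxidative phosphorylation were -0.12 and -0.07, with 59 of 76 and 52 of 71 genes below 0. In cjaFOXP2 against pcDNA3 the medians of these 2 lists were -0.26 and -0.18, with 70 of 76 and 64 of 71 genes below 0. There limma called 0, and 3 and 1 were lower at an unadjusted p of 0.05. Ribosomal protein pseudogenes (25 tested) had a median of -0.19 in hsaFOXP2 against non-human FOXP2 and of -0.15 in cjaFOXP2 against pcDNA3, with 19 below 0 in either, where the members were at -0.20 and -0.09.

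**Figure D4:**
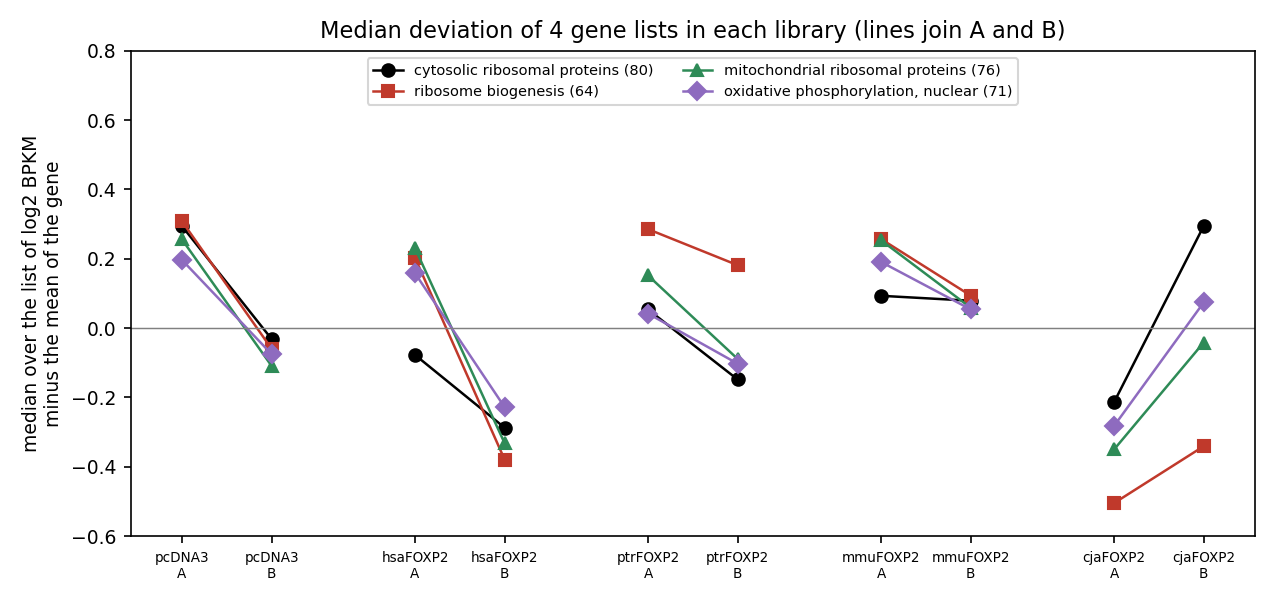
Markers give the median over each of 4 gene lists of log2(BPKM + 0.1) minus the mean of the gene, by library, and lines join replicates A and B of a condition. In pcDNA3 the lists lie together, while in cjaFOXP2 B the cytosolic ribosomal proteins are at 0.29 and the ribosome biogenesis genes at -0.34.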

How the data were processed

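SH-SY5Y libraries of polyadenylated RNA (10 in all, 2 per condition) were examined. The authors aligned reads to hg19 with STAR (its version was not given in the sources used here), then counted overlaps with exons of UCSC transcripts and deposited BPKM, an RPKM of mapped bases, per transcript. The treatment of strand and of reads with several matches was likewise not given. From the deposited BPKM (80922 transcripts, 2 without a symbol left out) the mean per symbol was computed. limma 3.58.1 (R 4.3.3) with trend and robust moderation was applied to log2(BPKM + 0.1) of symbols above 0 in at least 2 fitted libraries, with Benjamini-Hochberg adjustment over all of them and a threshold of 0.05. The fit was tested on simulated data with log2 changes larger than that of any member here. How often it would call changes of the members' size was not examined. Fold changes are on the log2(BPKM + 0.1) scale. Human against non-human FOXP2 was fitted on 8 libraries, the comparisons with pcDNA3 on 10 libraries in 5 groups. Python 3.11.15, pandas 2.3.3 and matplotlib 3.10.9 served the other steps. p-values measure the spread between transfections of 1 line. For human against non-human FOXP2, where the 3 non-human cDNAs formed 1 group, that spread also holds differences between these cDNAs.

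By the labels, libraries of 1 letter share a transfection round, which pairs them. Differences between A and B correlated between conditions at -0.33 to 0.51 over 13412 symbols, over 0.1 in 6 of 10 pairs. Alternatives were other pseudocounts, filters, transcript summaries, scalings, a replicate block, and the loss of each library.

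Members and lists were chosen with earlier results of these data known. Named members were taken from the 5 highest and 5 lowest in mean BPKM, the 4 named in the rule, RPL37, RPL5, RPL11, RPS6, RPS19, RPL22, paralog pairs, and the 2 highest and 2 lowest per comparison. Not all of these are named. Others (RPS18, RPL23, RPL13A, RPS29, RPL26 and further names) were chosen after their values were seen. Promoters of 17 members, among them RPL3L, RPL5, RPL7, RPL8, RPL23, RPL23A, RPL30, RPL37, RPL39L, RPS2, RPS15A and RPS20, were not analysed here. Some members are counted but not reported here by name.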

Additional observations from a re-analysis of the deposited data

Results flagged for a closer look

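In 6 of 80 members a single library, cjaFOXP2 B, lay far above the other 5 non-human FOXP2 libraries by Dixon's criterion, which chance would meet in about 5% of such groups, and 5 of these members are given here. RPL12 had 205 BPKM there against 137 to 163 in the other libraries. RPL31, at the exit of the peptide tunnel, had 225 against 144 to 171. RPS21 had 296 against 229.6 to 245. RPS25 had 354 against 238 to 267, and RPS3A had 192 against 133 to 155. The direction was the same in each, as it was in the common movement of the members in this library. Since the members move together, the 6 are no independent observations, and 6 of 80 is little above that 5%. The share of all symbols that meet the criterion was not computed.

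The members' median difference of B minus A was 0.51 on the log2 scale in cjaFOXP2 and -0.31 to -0.02 in the other 4 conditions. Every member was higher in B in cjaFOXP2 and every member was higher in A in pcDNA3. With 1 pair per condition this difference between conditions was not tested.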

How the results depend on the processing

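No member was called by limma in any of the 6 comparisons under any alternative run, namely pseudocounts of 1 and 0.01, no filter or a mean of at least 1 BPKM, the sum over transcripts or the leading transcript, median-ratio scaling, quantile normalisation, no trend or robust moderation, the replicate block (for B against A, no condition term), and the loss of each library in turn. A lone library left in a group was assumed to vary like the other groups. With the replicate letter as a block, the members' medians were -0.20 for hsaFOXP2 against non-human FOXP2, -0.31, -0.18, -0.04 and -0.09 for hsaFOXP2, ptrFOXP2, mmuFOXP2 and cjaFOXP2 against pcDNA3, and the block changed no call. With 1 A and 1 B library per condition a block cannot move these medians. The median for cjaFOXP2 against pcDNA3 lay between -0.35 and 0.18 when 1 library was left out, and was -0.50 within round A and 0.32 within round B, so that its sign rested on the library kept. Leaving out 1 library gave ranges of -0.32 to -0.09 and -0.47 to -0.15 for hsaFOXP2 against non-human FOXP2 and pcDNA3, -0.32 to -0.02 for ptrFOXP2, -0.21 to 0.11 for mmuFOXP2, and -0.19 to 0.02 for B against A. Single members turned sign in the same way. RPL39L ranged from -0.28 to 0.67 for hsaFOXP2 against non-human FOXP2, from -0.52 to 0.43 for hsaFOXP2 and from -0.21 to 0.57 for mmuFOXP2 against pcDNA3. RPL35 ranged from -0.32 to 0.24 for hsaFOXP2 against non-human FOXP2, RPS28 from -0.23 to 0.092 for hsaFOXP2, RPS26 from -0.20 to 0.23 for ptrFOXP2, and RPL12 from -0.15 to 0.32 and RPS18 from -0.10 to 0.29 for cjaFOXP2 against pcDNA3.

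The members' share of summed BPKM depends on how transcripts are combined. Summed over transcripts it was 4.60% and 3.84% in pcDNA3, 3.59% and 3.26% in hsaFOXP2, 3.95% and 3.55% in ptrFOXP2, 3.92% and 4.03% in mmuFOXP2, and 3.50% and 4.76% in cjaFOXP2. Without the 5 most abundant members it was 4.79% and 3.88% in pcDNA3, 3.76% and 3.43% in hsaFOXP2, 4.09% and 3.66% in ptrFOXP2, 4.16% and 4.04% in mmuFOXP2, and 3.47% and 4.74% in cjaFOXP2, since it then covers fewer genes. The files hold no counts, so the depth behind a value is unknown, and the members' median difference between the 2 libraries of a condition reached 0.51, more than any median between conditions.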
